A study of Homo sapiens with 20 samples.

Results

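BCI, an inhibitor of the ERK phosphatase DUSP6 and of the related DUSP1, changed the RNA of HEL cells at 4 h, and the question here was which of those changes were still there at 48 h. HEL is a human erythroleukaemia line that carries the JAK2 V617F mutation. The 8 libraries compared over time, of 20 in the series, were cells given 1 µM BCI for 48 h, DMSO (the solvent) for 48 h, 1 µM BCI for 4 h and DMSO for 4 h, with 2 libraries each. A side comparison used cells given 10.0 µM BI-D1870 (an RSK inhibitor) with 1 µM BCI for 24 h and BI-D1870 alone for 24 h, with 2 libraries each, fitted with 2 DMSO libraries of 24 h. Every gene listed once in the deposited count table was a member, 55093 in all, and 21908 had enough counts to be tested. For each, the response to BCI (the log2 fold change, BCI against DMSO) at 48 h minus that at 4 h was tested in one edgeR quasi-likelihood fit of all 8 libraries, and this value is called the difference below. A gene was called where the Benjamini-Hochberg adjusted p over all genes tested was under 0.05. Levels are counts per library total on the CPM scale, adjusted between libraries by TMM, and they are not divided by gene length. The later time is 48 h in the sample labels, while the columns of the count table are headed 24h, and the labels were followed. No source used here says whether the duplicates came from separate cultures, so the p-values speak only of the spread among these libraries, which may be technical.

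DUSP6 removes phosphate from ERK in the cytoplasm, and its own transcription is raised by ERK signalling, which makes it part of a feedback loop. DUSP1 acts on the same family of kinases and is induced quickly by stress. Agents that react with protein thiols can set off well-known stress programmes: the heat shock response, in which the factor HSF1 turns on chaperone genes, and the antioxidant response, in which NRF2 is released from KEAP1 and turns on genes for haem breakdown and glutathione synthesis.

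Libraries held 63916850 to 84452743 counts and, per the labels, shared a flow cell and lane. The erythroid and megakaryocyte genes of the line were abundant: 12 lineage markers summed to 4204 to 4273 CPM in BCI cells and 4215 to 4275 CPM in DMSO cells at 48 h, and to 4680 to 4883 CPM with BCI and 4717 to 4858 CPM in DMSO at 4 h. Of these only GP1BB was at 0 in every library. The 18 markers of lymphoid, monocytic, epithelial and stromal cells summed to 80.9 to 94.2 CPM over the 8 libraries, mostly KRT18, LYZ, KRT8 and CD2, and CD3D, CDH1 and COL1A2 did not exceed 4 counts. CD2, a T cell marker, was at 21.97 and 15.96 CPM with BCI and 20.4 and 14.2 CPM in DMSO at 48 h, against 8.63 and 10.0 CPM with BCI and 9.14 and 10.8 CPM in DMSO at 4 h, higher at 48 h in both arms. None of the 11 such markers tested had a called difference. Both 48 h groups were less even than the 4 h groups: of 11390 genes averaging 4 CPM or more, 49 differed over 2-fold between the BCI libraries and 109 between the DMSO libraries at 48 h, against 0 and 4 at 4 h.

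At 48 h no gene was called between BCI and DMSO (0% of genes tested). There, edgeR gave 316 genes at an unadjusted p under 0.05, where 5% of all genes would be 1095. Such a shortfall marks the test as conservative at 48 h, so responses may be missed. Replicates of BCI and DMSO at 48 h deviated together (correlation 0.82), which this fit does not model. DESeq2 and limma-voom also called 0. Without a low-count filter 27 genes were called at 48 h, and with a replicate block within each time 4 were. At 4 h BCI cells had 1052 genes called higher (4.8%) and 1302 called lower (5.94%) than DMSO cells. The difference between the times was called for 757 genes (3.46%), of which 301 had a lower response at 48 h (1.37%) and 456 a higher one (2.08%). Every one of the 301 lay above DMSO at 4 h and every one of the 456 below it. Since the difference subtracts the 4 h response and no gene was called at 48 h, this split is largely built in. In bulk RNA, fewer cells of a type and less RNA per cell cannot be told apart. The 757 were 436 without BCI 48 h replicate 1 and 88 to 138 without any single 4 h library, and they were 1705 without DMSO 48 h replicate 1.

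The 2354 genes called at 4 h were sorted by what the 48 h libraries showed. A response was counted as vanished where the difference was called and the 95% interval of the 48 h response lay wholly within 1.5-fold of DMSO, unless it met the rule for reversed responses given below. This held for 703 genes, 255 that rose and 448 that fell at 4 h, which was 92.9% of the 757. Over all genes tested, 51.4% had a 48 h interval that narrow, and the share rose with the level of the gene, so a narrow interval alone is common. A further 45 genes, 37 of them rises, formed a class named reduced. Their difference was called, the 48 h interval was not wholly within 1.5-fold, and the rule for reversed was not met. Their median response at 48 h was -0.19 (log2, range -1.80 to 0.31). The name marks an imprecise 48 h value and does not show that part of the response was kept. Their median level was 3.04 CPM, against 52.5 CPM for the vanished genes. For 8 genes the response reversed and for 4 it persisted, by the rules given below. For the other 1594 the difference was not called and the rule for persisting was not met. Of those 1594, 1359 (85.3%) had a 48 h interval within 1.5-fold. Their median absolute response at 4 h was 0.49 (log2), itself below the 1.5-fold bound of 0.585. Such an interval therefore does not show that these responses were lost. The vanished genes numbered 384 without BCI 48 h replicate 1, 446 without BCI 48 h replicate 2 and 75 to 125 without any single 4 h library.

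**Figure D1:**
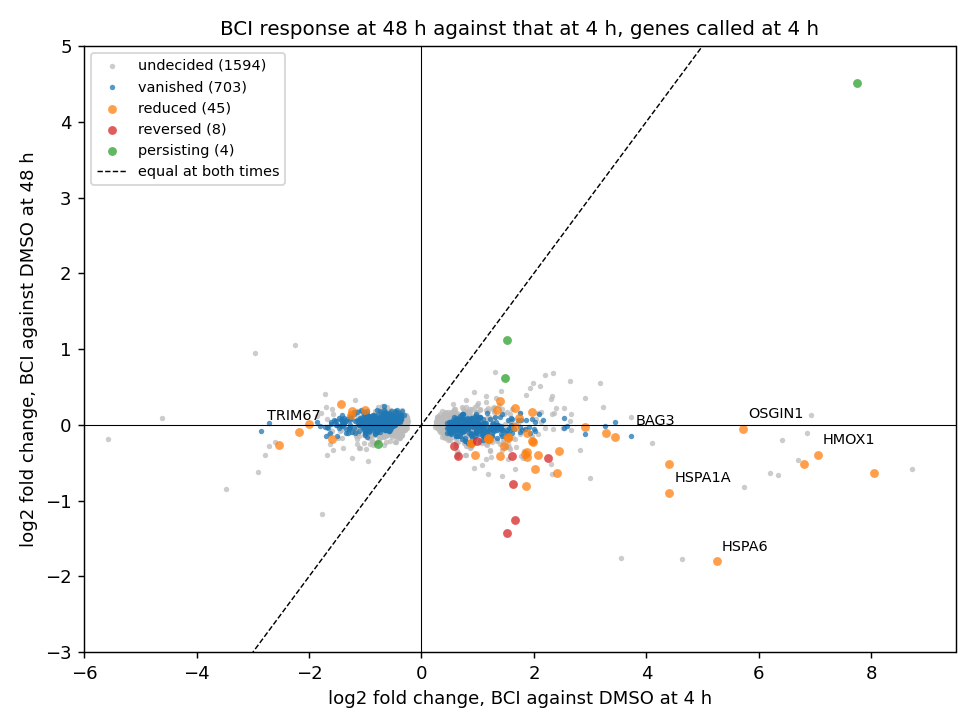
Response to BCI at 48 h (y, log2 fold change against DMSO at 48 h) against the response at 4 h (x, log2 fold change against DMSO at 4 h), 1 point per gene of the 2354 called at 4 h, coloured by class. Most points lie near the horizontal line at 0 and not along the dashed line of equal responses. At 48 h the 4 persisting genes (green) span -0.26 to 4.51. Reduced genes reach down to -1.80, reversed genes to -1.42, and the 1594 undecided genes span -1.77 to 1.05.

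Genes with large early responses had 48 h medians near 0, but many of their 48 h values were imprecise. Of the 270 genes at least 2-fold higher with BCI at 4 h, the median 48 h log2 fold change was -0.05, with quartiles of -0.20 and 0.08, and 3 genes kept at least 50% of their log2 response. Of the 148 genes at least 2-fold lower at 4 h, the median at 48 h was 0.00, with quartiles of -0.10 and 0.08, and 1 gene kept 50% or more. The 48 h interval was within 1.5-fold for 102 of the 270 (37.8%) and 92 of the 148 (62.2%). The difference was called for 135 and 88 of them. In the 27 genes with a 4 h log2 fold change of at least 3, the 48 h median was -0.24, with quartiles of -0.63 and -0.03. Of these 27, 3 had an interval within 1.5-fold. Over all genes tested the medians were 0.01 at 48 h and 0.02 at 4 h.

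Heat shock chaperones had the most negative median difference of the 23 lists, -1.79 (log2). Of the 26 in the list, all of them tested, 24 rose at 4 h, against 4.8% of all genes. None was called at 48 h, and 23 had a lower response at 48 h, against 1.37% of all genes. The list's median response was 0.01 at 48 h and 1.78 at 4 h (log2). Of the 23, 19 had vanished and 4 were reduced. The count was 13 to 16 without any single 4 h library and 24 without either DMSO 48 h library. HSP90AB1, CRYAB and HSPA8 were the members without a called difference.

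DNAJB1, the HSP40 co-chaperone that stimulates HSP70, was at 99.5 and 84.0 CPM in BCI cells and 98.3 and 86.8 CPM in DMSO cells at 48 h. At 4 h it was at 1847 and 1517 CPM with BCI and 175 and 175 CPM in DMSO. The 48 h groups overlapped, and both were below DMSO at 4 h. The difference was -3.27 ± 0.17 (log2, SE; edgeR adjusted p = 3.04e-05).

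HSPH1, an HSP110 protein that exchanges the nucleotide of HSP70, had 146 and 132 CPM in BCI cells and 141 and 145 CPM in DMSO cells at 48 h, against 2108 and 1995 CPM with BCI and 359.6 and 348 CPM in DMSO at 4 h. Its difference was -2.57 ± 0.11 (edgeR adjusted p = 1.07e-05). DNAJA4, another HSP40 protein, had 52.0 and 52.4 CPM with BCI and 54.7 and 50.3 CPM in DMSO at 48 h, against 506 and 474 CPM with BCI and 77.4 and 86.0 CPM in DMSO at 4 h, a difference of -2.59 ± 0.12. The DMSO controls were themselves lower at 48 h for these genes: in 17 of the 26 chaperones all 4 libraries of 48 h lay below both DMSO libraries of 4 h.

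BAG3, which hands HSP70 clients to autophagy, stood at 18.4 and 25.2 CPM with BCI and 19.9 and 28.3 CPM in DMSO at 48 h, and at 382 and 309.9 CPM with BCI and 26.8 and 25.7 CPM in DMSO at 4 h. Here DMSO cells were alike at both times and the BCI level came back to theirs, with a difference of -3.87 ± 0.27 (edgeR adjusted p = 0.00017). For DNAJB4 and the proteasome-associated ZFAND2A the 48 h libraries also lay near DMSO at 4 h, with differences of -3.40 ± 0.22 and -3.03 ± 0.24.

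The stress-inducible HSP70 genes rose more at 4 h, and their 48 h values were loose. HSPA6 had 1.63 and 5.32 CPM with BCI and 1.19 and 22.8 CPM in DMSO at 48 h, against 164 and 111 CPM with BCI and 3.16 and 4.08 CPM in DMSO at 4 h. The DMSO 48 h replicate 2 library was the highest of the 48 h libraries. The difference of -7.05 ± 1.405 (edgeR adjusted p = 0.0286) was lost with limma-voom, without any single 4 h library and without BCI 48 h replicate 1. HSPA1A had 5.33 and 7.47 CPM with BCI and 5.35 and 18.4 CPM in DMSO at 48 h, against 449 and 323 CPM with BCI and 18.5 and 18.0 CPM in DMSO at 4 h. Its near-identical neighbour HSPA1B had 26.5 and 35.5 CPM with BCI and 27.4 and 61.0 CPM in DMSO at 48 h, against 1919 and 1579 CPM with BCI and 82.2 and 84.0 CPM in DMSO at 4 h. Their differences were -5.29 ± 0.63 and -4.91 ± 0.44, and how reads were divided between these 2 genes is uncertain. The same replicate 2 library held the highest HSPA1A and HSPA1B among 48 h libraries, and its part in the 48 h values of these 3 genes was not tested beyond leaving it out.

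The abundant constitutive HSPA8 (HSC70), named after its values were seen, was not called at either time. It had 2324 and 1016 CPM with BCI and 2229.5 and 989 CPM in DMSO at 48 h, so the replicates differed by more than the treatments. At 4 h it had 10467 and 9689 CPM with BCI and 5162 and 5222 CPM in DMSO. Its 48 h interval was -0.81 to 0.92 (log2).

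Of the chaperones, 24 had an entry in the RefSeq promoter table (GRCh38.p14). The sequence GAANNTTCNNGAA, the inverted repeat that HSF1 binds, or its other strand TTCNNGAANNTTC, was found in the 250 bases before the start of 5 of them (20.8%), against 33 of 12134 genes tested that had an entry (0.272%). It was in 5 of 223 promoters of genes with a lower response at 48 h (2.24%) and in 0 of 356 with a higher one (0%). The match on 4 of these 5 chaperone promoters is shown on the gene's strand because these genes lost their rise together, with up to 30 flanking bases and the matched letters in capitals. They lie at chr1:161524436-161524508 (+) for HSPA6, chr11:90223057-90223139 (-) for CHORDC1, chr11:75562147-75562219 (+) for SERPINH1 and chr7:157336843-157336915 (+) for DNAJB6. CHORDC1 held 3 overlapping matches and each of the others 1.
HSPA6: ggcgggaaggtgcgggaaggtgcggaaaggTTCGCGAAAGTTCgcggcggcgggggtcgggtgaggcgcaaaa
CHORDC1: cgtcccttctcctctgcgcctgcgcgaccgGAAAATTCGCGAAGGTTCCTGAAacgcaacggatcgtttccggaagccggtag
SERPINH1: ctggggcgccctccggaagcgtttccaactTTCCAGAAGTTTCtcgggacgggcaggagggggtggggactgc
DNAJB6: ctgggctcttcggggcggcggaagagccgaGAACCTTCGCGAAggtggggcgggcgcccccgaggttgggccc
The matched stretch began nearest the start in CHORDC1, 60 bases before it, and lay 74, 76 and 131 bases before it in HSPA6, SERPINH1 and DNAJB6. CHORDC1, an HSP90-binding protein, had 27.5 and 29.1 CPM with BCI and 28.6 and 31.0 CPM in DMSO at 48 h, against 260.4 and 261 CPM with BCI and 76.8 and 73.6 CPM in DMSO at 4 h. SERPINH1, the collagen chaperone HSP47, had 129 and 119 CPM with BCI and 123 and 110.2 CPM in DMSO at 48 h, against 775 and 600.4 CPM with BCI and 119 and 119.9 CPM in DMSO at 4 h. CHORDC1 was low in both arms at 48 h, while SERPINH1 had returned to its DMSO level of 4 h. These 2 genes and DNAJB6 were named for the sequence, after their values were seen. A match is a description and not a binding site.

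**Figure D2:**
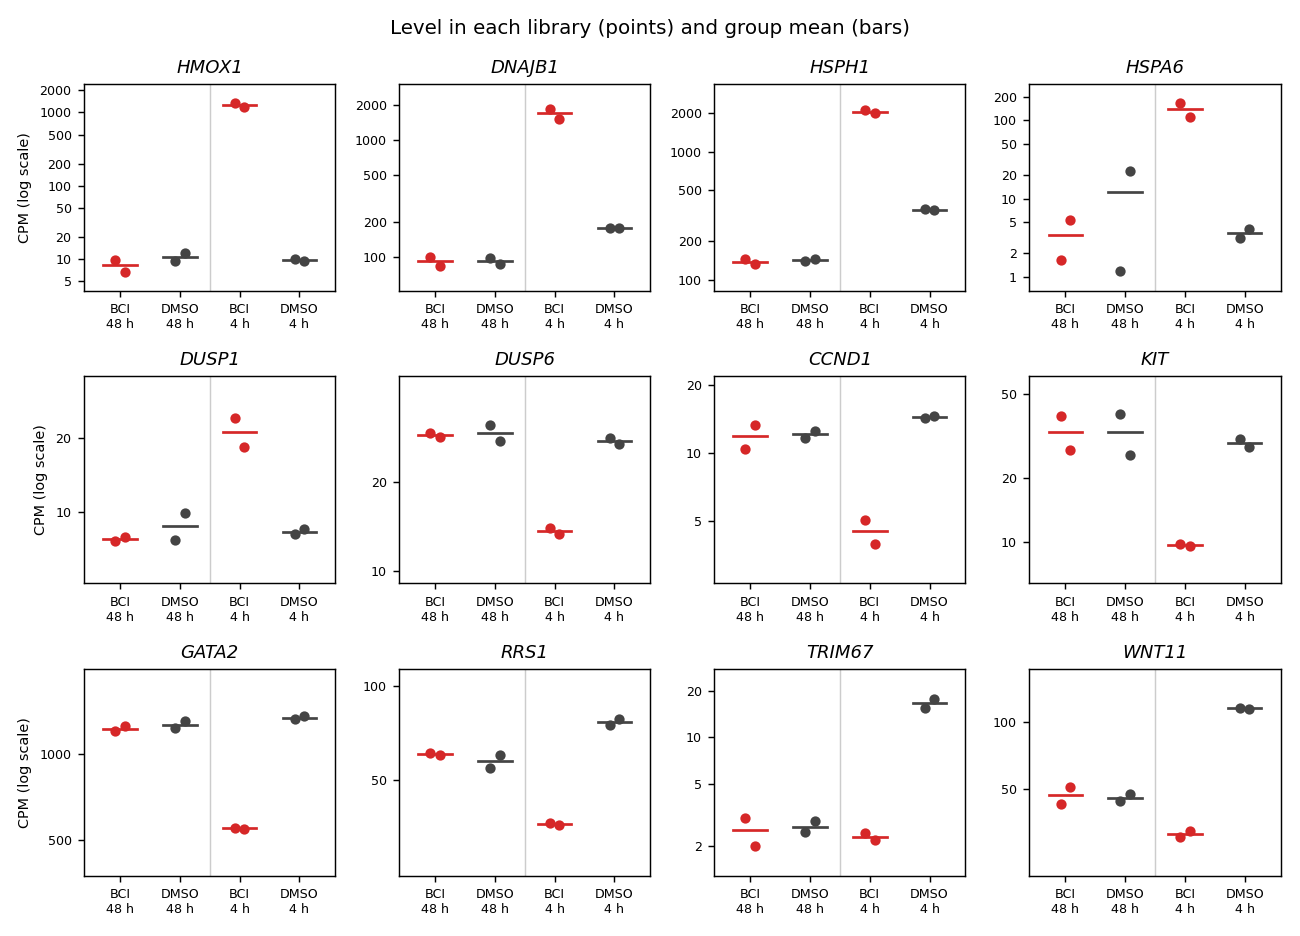
Level of 12 genes in each library (points, CPM on a log axis) and the group mean (bars), with BCI in red and DMSO in grey, and 48 h left of 4 h in each panel. In all 12 panels the BCI and DMSO points overlap at 48 h and do not overlap at 4 h.

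NRF2 target genes lost their rise as well. Of 30 listed, 28 were tested and 18 rose at 4 h, against 4.8% of all genes. None was called at 48 h and 14 had a lower response at 48 h, against 1.37% of all genes. The list's median response was 0.02 at 48 h and 0.97 at 4 h. The count was 7 to 9 without any single 4 h library.

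HMOX1 (chr22:35380361-35394214), the haem oxygenase, had 9.57 and 6.71 CPM with BCI and 9.33 and 12.2 CPM in DMSO at 48 h, against 1356 and 1191 CPM with BCI and 10.0 and 9.27 CPM in DMSO at 4 h. Its 48 h groups overlapped, near the level of DMSO at 4 h. The 48 h interval of -0.78 to -0.01 put it in the reduced class. The difference of -7.44 ± 0.26 (edgeR adjusted p = 3.59e-06) was the most negative of the genes ranked, which were those called, with a mean of at least 4 CPM and 4 h groups that did not overlap. OSGIN1, an oxidative stress-induced growth inhibitor, had 2.07 and 4.95 CPM with BCI and 2.10 and 5.11 CPM in DMSO at 48 h, against 97.4 and 81.0 CPM with BCI and 1.93 and 1.44 CPM in DMSO at 4 h.

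GCLM, the modifier subunit of the enzyme that starts glutathione synthesis, had 96.5 and 78.3 CPM with BCI and 89.8 and 77.8 CPM in DMSO at 48 h, against 285 and 293 CPM with BCI and 64.04 and 64.6 CPM in DMSO at 4 h, a difference of -2.11 ± 0.15. SLC7A11, the cystine importer, had a difference of -1.94 ± 0.11 with 49.0 and 46.6 CPM in BCI cells and 43.1 and 43.5 CPM in DMSO cells at 48 h. Its 48 h libraries did not overlap, yet the 48 h interval of -0.03 to 0.32 held 0. TXNRD1, thioredoxin reductase, named here for its promoter, had 187 and 183 CPM with BCI and 174 and 179 CPM in DMSO at 48 h, against 604 and 560.5 CPM with BCI and 182 and 171 CPM in DMSO at 4 h. FTL, the ferritin light chain, and GCLC, the catalytic partner of GCLM, both named after their values were seen, were not called at either time.

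The core letters of the antioxidant response element, TGACNNNGC or GCNNNGTCA on the other strand, were in 39 of 223 promoters of genes with a lower response at 48 h (17.5%), 40 of 356 with a higher one (11.2%) and 12% of the 12134. They were in 3 of 21 NRF2 target promoters (14.3%), a share near that of all genes. The matches in GCLM (chr1:93909431-93909494, -) and TXNRD1 (chr12:104215650-104215718, +), both with a called loss, are shown with the matched letters in capitals.
GCLM: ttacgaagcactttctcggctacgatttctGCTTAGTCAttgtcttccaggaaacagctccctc
TXNRD1: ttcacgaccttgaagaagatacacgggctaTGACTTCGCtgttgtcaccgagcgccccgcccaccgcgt
The E-box CACGTG was in 54 of the 356 promoters with a higher response at 48 h (15.2%), 16 of the 223 with a lower one (7.17%) and 8.51% of the 12134.

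Lists of protein disposal had fewer calls. Of 13 autophagy receptor and ATG8 genes tested, 7 rose at 4 h, against 4.8% of all genes, and 3 had a lower response at 48 h, against 1.37%: GABARAPL1, SQSTM1 and CALCOCO2. GABARAPL1, an ATG8 protein of the autophagosome, had 12.9 and 15.9 CPM with BCI and 12.2 and 20.2 CPM in DMSO at 48 h, against 35.4 and 31.9 CPM with BCI and 11.5 and 11.6 CPM in DMSO at 4 h. Of 31 proteasome subunits, 6 rose at 4 h (4.8% of all genes) and 2 (1.37% of all genes), PSMC2 and PSMD11, had a lower response at 48 h. Of 19 endoplasmic reticulum stress genes, 4 rose at 4 h (4.8% of all genes) and 1 (1.37% of all genes), HERPUD1, had a lower response at 48 h, with 30.6 and 30.1 CPM with BCI and 29.1 and 25.9 CPM in DMSO at 48 h, against 149.6 and 132 CPM with BCI and 84.1 and 86.8 CPM in DMSO at 4 h. With time, the median change in DMSO cells was 0.17 for the autophagy list, -0.36 for the proteasome list and -1.395 for the endoplasmic reticulum list (log2, 48 h against 4 h). The calls of these 6 genes were each lost without any single 4 h library. HERPUD1 was also lost with DESeq2 size factors and with limma-voom, and CALCOCO2 with DESeq2 size factors.

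Of 23 ATF4 response genes, 5 rose at 4 h (4.8% of all genes) and none had a called difference (3.46% of all genes). The list's median response was 0.13 at 48 h and 0.24 at 4 h. ATF3, a stress-induced repressor, had a difference of -0.71 ± 0.19 (edgeR adjusted p = 0.0913), with 12.1 and 12.8 CPM with BCI and 11.8 and 10.6 CPM in DMSO at 48 h, against 25.1 and 19.2 CPM with BCI and 12.1 and 12.4 CPM in DMSO at 4 h.

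The phosphatases that BCI inhibits moved in opposite directions at 4 h and both returned. DUSP6 (chr12:89347232-89353271) had 29.02 and 28.2 CPM with BCI and 31.0 and 27.3 CPM in DMSO at 48 h, against 14.0 and 13.3 CPM with BCI and 28.001 and 26.8 CPM in DMSO at 4 h, a difference of 0.98 ± 0.14 (edgeR adjusted p = 0.00717). DUSP1 (chr5:172768090-172771195) had 7.66 and 7.95 CPM with BCI and 7.70 and 9.91 CPM in DMSO at 48 h, against 24.0 and 18.4 CPM with BCI and 8.17 and 8.54 CPM in DMSO at 4 h, a difference of -1.51 ± 0.23 (edgeR adjusted p = 0.00939). At 48 h the groups overlapped for DUSP6, and for DUSP1 both groups lay near the DMSO level of 4 h. The DUSP6 call was lost without any single 4 h library, and the DUSP1 call without 3 of the 4.

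Of 29 ERK feedback and immediate-early genes tested, 9 fell and 3 rose at 4 h, and the difference was called for 7, 5 higher and 2 lower at 48 h. Of all genes, 5.94% fell and 4.8% rose at 4 h, and the difference was called higher for 2.08% and lower for 1.37%. CCND1, the cyclin D1 gene, had 10.5 and 13.4 CPM with BCI and 11.7 and 12.5 CPM in DMSO at 48 h, against 5.07 and 3.97 CPM with BCI and 14.3 and 14.6 CPM in DMSO at 4 h, a difference of 1.66 ± 0.22 that was lost without DMSO 4 h replicate 2. JUNB, an AP-1 subunit, and DUSP2, a nuclear ERK phosphatase, had differences of 1.07 ± 0.14 and 0.92 ± 0.16. EGR1, an ERK-induced factor, was not called at either time, with a difference of -0.85 ± 0.29 (edgeR adjusted p = 0.16). RPS6KA1, the RSK1 kinase downstream of ERK, had 347 and 338 CPM with BCI and 314 and 353 CPM in DMSO at 48 h, against 229 and 219.8 CPM with BCI and 347 and 352 CPM in DMSO at 4 h, a difference of 0.68 ± 0.11 (edgeR adjusted p = 0.0126). The list's 7 calls were 0 to 3 without any single 4 h library and 14 without DMSO 48 h replicate 1.

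Targets of STAT5, the factor that JAK2 activates, fell at 4 h in 10 of 16, against 5.94% of all genes. Of the 16, 4 had a higher response at 48 h, against 2.08% of all genes, and none a lower one. The 4 were OSM, PIM2, CCND2 and ID1. PIM2, a survival kinase, had 236 and 209.7 CPM with BCI and 243 and 222 CPM in DMSO at 48 h, against 169.8 and 178 CPM with BCI and 304 and 330.4 CPM in DMSO at 4 h, a difference of 0.80 ± 0.12. PIM1, CISH and MYC fell at 4 h without a called difference: their differences were 0.72 ± 0.19, 0.43 ± 0.14 and 0.64 ± 0.20, and their 48 h intervals were -0.31 to 0.30, -0.26 to 0.18 and -0.25 to 0.40. JAK2 itself was not called at either time, with a difference of -0.27 ± 0.13 (edgeR adjusted p = 0.322). The 4 calls of this list were 0 to 1 without any single 4 h library and 9 without DMSO 48 h replicate 1.

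Regulators of blood stem and progenitor cells behaved likewise. Of 17 tested, 9 fell and 1 rose at 4 h, and GATA2, KIT and MECOM had a higher response at 48 h, while 5.94% of all genes fell at 4 h and 2.08% had a higher response at 48 h. GATA2 (chr3:128479427-128493185), a progenitor transcription factor, had 1203 and 1258 CPM with BCI and 1232 and 1310.5 CPM in DMSO at 48 h, against 551 and 549 CPM with BCI and 1328 and 1364 CPM in DMSO at 4 h. Its difference was 1.24 ± 0.10 (edgeR adjusted p = 0.00031), and this call held in all 18 alternatives run. KIT, the stem cell factor receptor, had 39.2 and 27.2 CPM with BCI and 40.3 and 25.9 CPM in DMSO at 48 h, against 9.77 and 9.60 CPM with BCI and 30.8 and 28.1 CPM in DMSO at 4 h. The 48 h replicates of KIT differed more from each other than BCI from DMSO, and the call (difference 1.61 ± 0.30) was lost without any single 4 h library. The list's 3 calls were 1 without any single 4 h library, 2 without BCI 48 h replicate 1, 5 without BCI 48 h replicate 2, 6 without DMSO 48 h replicate 1 and 5 without DMSO 48 h replicate 2.

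Lineage genes had 3 called differences. Of 23 erythroid genes 2 rose and 1 fell at 4 h, with called differences for 2, among them KLF1, and of 19 megakaryocyte genes 1 rose and 2 fell, with a called difference for THBS1, while 3.46% of all genes had one. At 4 h 4.8% of all genes rose and 5.94% fell. The call of KLF1 was lost without any single 4 h library, and that of THBS1 without 3 of the 4. KLF1, the erythroid transcription factor, had 222 and 179.6 CPM with BCI and 224 and 175 CPM in DMSO at 48 h, against 108 and 108 CPM with BCI and 196 and 201 CPM in DMSO at 4 h.

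Among 16 NF-kappaB targets, ICAM1, BCL3 and IL1B fell at 4 h and had a higher response at 48 h, which 2.08% of all genes had. At 4 h 5.94% of all genes fell. ICAM1, an adhesion receptor, had 25.6 and 27.1 CPM with BCI and 25.2 and 28.03 CPM in DMSO at 48 h, against 12.2 and 10.7 CPM with BCI and 29.1 and 33.3 CPM in DMSO at 4 h, with a difference of 1.43 ± 0.16 called in all 18 alternatives. IL1B was higher at 48 h in both arms, at 90.6 and 92.2 CPM with BCI and 95.4 and 88.4 CPM in DMSO, against 29.3 and 30.2 CPM with BCI and 45.4 and 43.9 CPM in DMSO at 4 h. The 3 calls were 1 without any single 4 h library, and 2 without either BCI 48 h library. Of 19 p53 targets, 2 rose (4.8% of all genes) and 3 fell (5.94%) at 4 h. CDKN1A had a lower response at 48 h (1.37% of all genes) and FDXR a higher one (2.08%). Both calls were lost without any single 4 h library. That of CDKN1A was also lost without BCI 48 h replicate 1, and that of FDXR without BCI 48 h replicate 2.

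Ribosome biogenesis was the list with the most genes that fell at 4 h and had a higher response at 48 h, mostly with a lower DMSO level at 48 h. All 35 listed genes were tested and 30 fell at 4 h, against 5.94% of all genes. None was called at 48 h and 22 had a higher response at 48 h, against 2.08% of all genes. All 22 were vanished, and all 35 had a 48 h interval within 1.5-fold. The list's median response was 0.05 at 48 h and -0.54 at 4 h. RRS1, a ribosome assembly factor, had 61.0 and 60.1 CPM with BCI and 54.8 and 60.3 CPM in DMSO at 48 h, against 36.3 and 35.9 CPM with BCI and 75.3 and 78.3 CPM in DMSO at 4 h, a difference of 1.16 ± 0.11 called in all 18 alternatives. MRTO4, which acts in assembly of the large subunit, had 103 and 98.2 CPM with BCI and 95.4 and 92.3 CPM in DMSO at 48 h, against 119.9 and 116 CPM with BCI and 183 and 193 CPM in DMSO at 4 h. For MRTO4 the BCI level at 48 h was not above that at 4 h, and the DMSO level was lower at 48 h. The list's 22 calls were 1 or 2 without any single 4 h library and 14 without BCI 48 h replicate 1.

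Of 39 DNA replication genes, 11 fell at 4 h, against 5.94% of all genes, and 4 had a higher response at 48 h, against 2.08%: E2F1, CCNE2, MCM4 and UHRF1. E2F1, the factor that drives entry into S phase, had 111 and 100.1 CPM with BCI and 109 and 84.3 CPM in DMSO at 48 h, against 81.7 and 84.1 CPM with BCI and 146 and 154 CPM in DMSO at 4 h. The 4 calls were 0 without any single 4 h library, 2 without BCI 48 h replicate 1, 7 without BCI 48 h replicate 2 and 33 without DMSO 48 h replicate 1. Of 22 sterol synthesis genes, 11 fell (5.94% of all genes) and 1 rose (4.8% of all genes) at 4 h. Of the 22, 2 had a higher response at 48 h (2.08% of all genes), among them DHCR7, an enzyme of cholesterol synthesis. DHCR7 was low in both arms at 48 h, at 56.8 and 56.7 CPM with BCI and 64.3 and 53.1 CPM in DMSO, against 113 and 107 CPM with BCI and 181 and 179 CPM in DMSO at 4 h. The 2 sterol calls were 0 without any single 4 h library, 1 without either BCI 48 h library and 10 without DMSO 48 h replicate 1. Metallothionein, mitosis, histone, interferon-stimulated and mitochondrially encoded genes had no called difference, among 7, 25, 12, 22 and 13 tested.

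**Figure D3:**
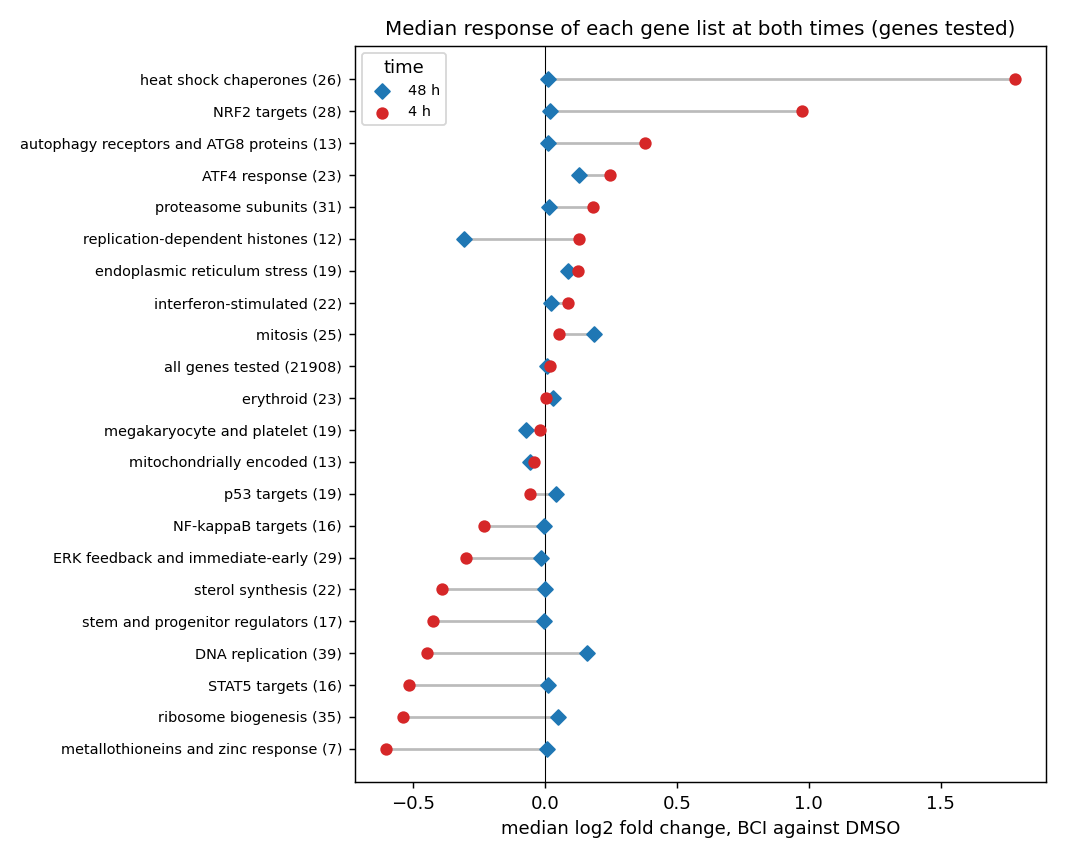
Median response of each gene list (log2 fold change, BCI against DMSO) at 48 h (blue diamonds) and 4 h (red circles), with the number of genes tested in brackets. The 48 h medians of heat shock chaperones (0.01), NRF2 targets (0.02) and ribosome biogenesis (0.05) lie next to that of all genes (0.01), while their 4 h medians are 1.78, 0.97 and -0.54.

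Several of the most positive differences belonged to genes outside these lists that fell at 4 h and were near DMSO at 48 h. TFAP4, a transcription factor of the helix-loop-helix family, had 51.3 and 46.6 CPM with BCI and 49.99 and 44.3 CPM in DMSO at 48 h, against 17.0 and 19.4 CPM with BCI and 53.1 and 51.6 CPM in DMSO at 4 h, with a difference of 1.58 ± 0.15 called in all 18 alternatives. PRF1, the pore-forming perforin, had 24.0 and 15.0 CPM with BCI and 25.8 and 12.7 CPM in DMSO at 48 h, against 6.84 and 6.82 CPM with BCI and 27.3 and 27.6 CPM in DMSO at 4 h. EPHA1, an ephrin receptor, and CTDSP1, a phosphatase of RNA polymerase II, had differences of 1.79 ± 0.25 and 1.63 ± 0.29. KIAA0040, HSH2D and KCNJ8 had differences of 1.56 ± 0.23, 1.59 ± 0.32 and 1.54 ± 0.26. The calls of PRF1, CTDSP1, KIAA0040 and KCNJ8 were each lost without any single 4 h library, and that of PRF1 also without BCI 48 h replicate 1. That of HSH2D was lost without either DMSO 4 h library, BCI 4 h replicate 1 or BCI 48 h replicate 1. That of EPHA1 was lost without DMSO 4 h replicate 2 or BCI 4 h replicate 2. On the losing side, HTRA3, a secreted serine protease, had 3.33 and 1.95 CPM with BCI and 2.46 and 3.46 CPM in DMSO at 48 h, against 9.41 and 9.66 CPM with BCI and 0.665 and 1.08 CPM in DMSO at 4 h.

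A response can close because the BCI level moves or because the DMSO level moves, and both occurred. This split was made after the values were seen. Of the 301 genes with a lower response at 48 h, more than 50% of the difference lay in the change of BCI cells between the times in 197 (65.4%), and in the change of DMSO cells in 69 (22.9%). In the other 35 (11.6%) DMSO cells moved the other way by more than 50% of the difference. Of the 456 with a higher response at 48 h, the BCI change held more than 50% in 233 (51.1%) and the DMSO change in 190 (41.7%). The median change with time in those 456 was 0.48 in BCI cells and -0.29 in DMSO cells, and in the 301 it was -0.89 in BCI cells and 0.13 in DMSO cells (log2).

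Of called genes averaging 4 CPM or more, TRIM67, a ubiquitin ligase of the tripartite motif family, had the largest change with time in DMSO cells. It had 3.03 and 2.01 CPM with BCI and 2.46 and 2.88 CPM in DMSO at 48 h, against 2.42 and 2.18 CPM with BCI and 15.4 and 17.8 CPM in DMSO at 4 h. The change with time was 0.14 in BCI cells and -2.64 in DMSO cells (log2, 48 h against 4 h). Its difference, 2.77 ± 0.29 (edgeR adjusted p = 0.00179), was the most positive of the genes ranked. WNT11, a secreted WNT ligand, had 42.9 and 51.2 CPM with BCI and 43.9 and 47.2 CPM in DMSO at 48 h, against 30.6 and 32.4 CPM with BCI and 115 and 114 CPM in DMSO at 4 h, so most of its difference of 1.91 ± 0.14 also lay in DMSO cells.

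Among the called differences of the ribosome biogenesis list, 19 of 22 lay for more than 50% in DMSO cells, whose median change with time over the 35 genes was -0.58, against 0.02 in BCI cells. By contrast, all 3 called stem and progenitor genes lay for more than 50% in BCI cells, as did 6 of 7 ERK feedback genes. On the side of rises, SLC48A1, a haem transporter named after its values were seen, had 139.9 and 111 CPM with BCI and 139 and 114 CPM in DMSO at 48 h, against 99.2 and 105 CPM with BCI and 43.8 and 39.8 CPM in DMSO at 4 h. There the DMSO level met the BCI level. PTGDR2, a prostaglandin D2 receptor, was higher at 48 h in both arms, by 3.26 in BCI cells and 1.64 in DMSO cells (log2).

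**Figure D4:**
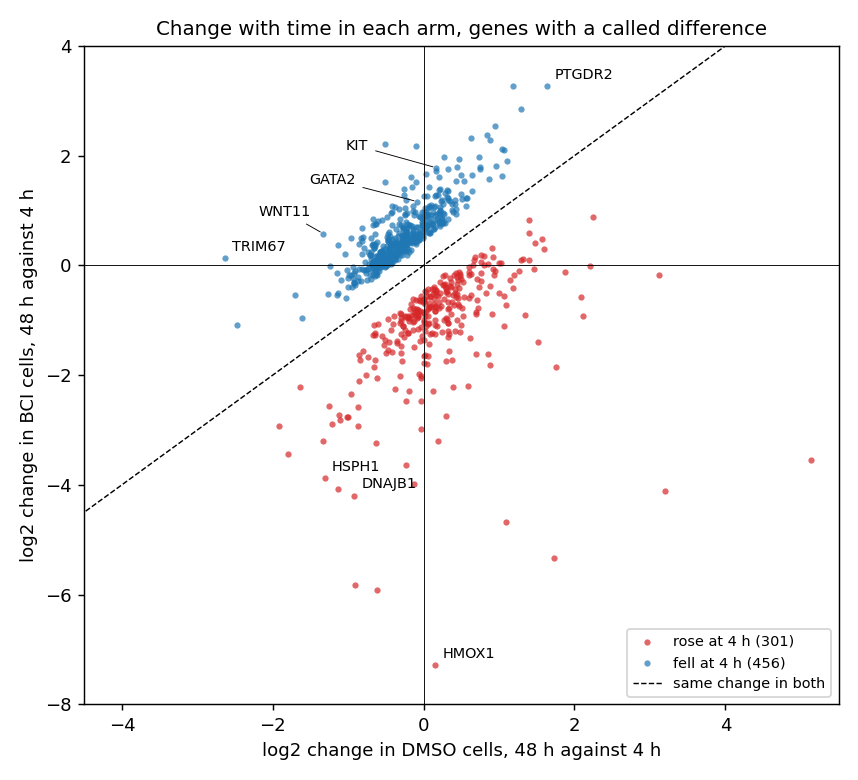
Change with time (log2, 48 h against 4 h) in BCI cells (y) against that in DMSO cells (x) for the 757 genes with a called difference, in red those that rose at 4 h and in blue those that fell. The distance from the dashed line is the difference, so TRIM67 and WNT11 at the left owe it mostly to DMSO cells and HMOX1 at the bottom to BCI cells.

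Persisting responses were few and were not shown to be more common than in all genes. A response was counted as persisting where the difference was not called, the 95% interval of the 48 h response excluded 0 on the 4 h side and the 48 h libraries did not overlap. That held for 3 of 1052 rises (0.285%) and 1 of 1302 falls (0.0768%). Of all genes, 0.484% met the interval and overlap rule above DMSO and 0.913% below it. Those background shares carry no condition on the difference, so they are not like for like. SOX4, a transcription factor of progenitors, was the only persisting gene with a mean of at least 4 CPM. It had 17.4 and 15.4 CPM with BCI and 19.9 and 19.2 CPM in DMSO at 48 h. At 4 h it had 10.2 and 10.5 CPM with BCI and 17.1 and 18.4 CPM in DMSO. Its 48 h response of -0.26 (95% interval -0.49 to -0.02) was smaller than that of -0.78 at 4 h, and the difference of 0.52 ± 0.15 was not called (edgeR adjusted p = 0.103). The other 3, STYK1, CCDC189 and the long non-coding RNA AC016831.5, were named after their values were seen. STYK1 had 1.75 and 2.28 CPM with BCI and 1.29 and 1.32 CPM in DMSO at 48 h. AC016831.5 was at 0 in all DMSO libraries and at 0.0468 and 0.0273 CPM with BCI at 48 h, near the 0.0351 and 0.0410 CPM that 3 counts are worth in those libraries, so no fold is given. The count of 4 was 97 without DMSO 48 h replicate 1, 38 without DMSO 48 h replicate 2, 12 and 30 without BCI 48 h replicates 1 and 2, and 0 or 1 without any single 4 h library.

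Reversed responses numbered 8, all of them rises at 4 h that lay below DMSO at 48 h. They were 0.76% of rises. Of all genes, 0.913% lay below DMSO at 48 h by the interval and overlap rule, with no condition on the difference. The reversed class also needed a called difference, so the shares are not like for like and show no excess over the background. With a mean of at least 4 CPM the reversed genes were HSPA7, SLC51A, SRXN1, MAP3K8 and ENGASE. HSPA7, a pseudogene close in sequence to HSPA6 with which it may share reads, had 2.71 and 2.72 CPM with BCI and 4.16 and 5.14 CPM in DMSO at 48 h, against 15.0 and 11.4 CPM with BCI and 3.88 and 4.69 CPM in DMSO at 4 h. SRXN1, the sulfiredoxin of the NRF2 list, had 4.43 and 5.56 CPM with BCI and 5.75 and 7.49 CPM in DMSO at 48 h, against 22.5 and 18.8 CPM with BCI and 6.32 and 7.27 CPM in DMSO at 4 h. ENGASE, an enzyme that trims glycans, had 56.6 and 61.6 CPM with BCI and 68.3 and 68.5 CPM in DMSO at 48 h, against 84.7 and 93.3 CPM with BCI and 43.7 and 46.2 CPM in DMSO at 4 h. Their 48 h responses were -0.78, -0.41 and -0.21, with intervals of -1.19 to -0.36, -0.80 to -0.01 and -0.40 to -0.02. None of the 8 was called at 48 h. The count was 353 without DMSO 48 h replicate 1, 20 without DMSO 48 h replicate 2, 10 and 41 without BCI 48 h replicates 1 and 2, and 1 or 2 without any single 4 h library.

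A called difference without a call at 4 h was seen in 1 gene, and in 183 without DMSO 48 h replicate 1, 8 without BCI 48 h replicate 2, 4 without DMSO 48 h replicate 2 and 0 without BCI 48 h replicate 1. The gene, CTXND1, named after its values were seen, had 0.257 and 0.355 CPM with BCI and 0.858 and 0.721 CPM in DMSO at 48 h, against 0.241 and 0.447 CPM with BCI and 0.113 and 0.0647 CPM in DMSO at 4 h. Its difference was -3.30 ± 0.71 (edgeR adjusted p = 0.0376), and the 4 h response missed the threshold (edgeR adjusted p = 0.0552). It was not called at 48 h either.

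What could be seen at 48 h depended on the level. In genes with a mean of 4 to 16 CPM, 83.7% had a 48 h interval within 1.5-fold, and above 64 CPM 97.6% did. In genes of 1 CPM or less 0.0265% did, and there a lasting response of 1.5-fold was not detectable.

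In separate libraries, HEL cells were given 1 µM BCI for 24 h on top of 10.0 µM BI-D1870, so BI-D1870 was in both groups. There, BCI with BI-D1870 against BI-D1870 alone gave 1004 calls among 21328 genes (4.71%). The spread between replicates (biological coefficient of variation) was 5.01% in that fit and 13.3% in the fit over time. The number of calls is therefore not like for like with that at 48 h. HMOX1 was lower with BCI added (log2 fold change -1.12 ± 0.13, SE, edgeR adjusted p = 2.54e-05), as were HSP90AA1 (-0.69) and HSPA8 (-1.14), while NQO1 (1.42) and HSPA6 (1.95) were higher. BAG3, HSPA1A and DUSP1 had 0.05, -0.03 and 0.04 and were not called. HSP90AA1, HSPA8 and NQO1 were chosen after their values were seen. These values come from another table with its own controls and were not tested against those above.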

How the data were processed

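RNA sequencing counts per gene were deposited by the authors as whole numbers, with no normalization. Per the submitters' processing notes, bcl2fastq, STAR 2.5.1a, the build GRCh38 and edgeR were used; the sources used here do not give the counter, its annotation or its strand setting. The table held 55209 lines, of which 116 repeated a gene and were left out, and 0 columns had no sample. In counts from 1 to 20, 68.1 to 70.6% were even. Libraries held 63916850 to 84452743 counts, at which 3 counts are worth 0.0351 to 0.0486 CPM, counting error only.

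The 8 libraries were fitted together in R 4.3.3 with edgeR 4.0.16 (filterByExpr, TMM, 1 mean per group, no block, quasi-likelihood test, Benjamini-Hochberg at 0.05). The biological coefficient of variation was 13.3% with 4 residual degrees of freedom. Intervals at 48 h are 95%. The BI-D1870 libraries were fitted in their own table, and the table of persistent cells was not used here. The fit was also run on simulated data, whose outcome is not given here. Alternatives were DESeq2 1.42.0, its size factors, limma-voom (limma 3.58.1), other filters, a replicate block, other fold bounds and leaving out libraries.

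A gene's response was reversed where the difference was called and the 48 h interval excluded 0 on the other side with groups that did not overlap. Named genes were 8 fixed ones, the 12 most negative and 12 most positive called differences (mean of at least 4 CPM, 4 h groups not overlapping), up to 5 persisting and reversed genes a direction, and up to 5 members of each of 23 lists. The genes, lists and rules were chosen with earlier results of these data known. Gene coordinates are GENCODE 29 (GRCh38), and promoters RefSeq (GRCh38.p14). Some genes are not reported here.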

Additional observations from a re-analysis of the deposited data

Results flagged for a closer look

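The response to BCI differed between 48 h and 4 h for 757 genes by a test of the difference itself in edgeR, and 27 genes chosen by rank or fixed by name were among them. The differences below are the log2 fold change at 48 h minus that at 4 h. The stress genes with a lower response at 48 h were HMOX1 with -7.44, HSPA6 with -7.05, OSGIN1 with -5.77, HSPA1A with -5.29, HSPA1B with -4.91, BAG3 with -3.87, DNAJB4 with -3.40, DNAJB1 with -3.27, ZFAND2A with -3.03, DNAJA4 with -2.59 and HSPH1 with -2.57. The protease HTRA3 had -3.60 and the phosphatase DUSP1 -1.51. Signalling and receptor genes with a higher response at 48 h were RPS6KA1 with 0.68, DUSP6 with 0.98, KIT with 1.61, PTGDR2 with 1.62, CCND1 with 1.66, EPHA1 with 1.79 and WNT11 with 1.91. Of the others, KCNJ8 had 1.54, KIAA0040 1.56, TFAP4 1.58, HSH2D 1.59, CTDSP1 1.63, PRF1 2.02 and TRIM67 2.77. Several of these calls, such as those of HSPA6, DUSP6, KIT and PRF1, were lost when any single 4 h library was left out.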

How the results depend on the processing

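Leaving out 1 library at a time leaves its group with a lone library, which is then assumed to vary like the others. The difference was then called for 88 to 1705 genes, higher for 35 to 1098 and lower for 53 to 607. At 4 h, 235 to 1456 were called higher and 307 to 1817 lower, and at 48 h 0 to 0. Vanished genes were 75 to 967, reduced 9 to 202, reversed 1 to 353, persisting 0 to 97 and the remainder 464 to 2372. Without a low-count filter the counts were 1658 in all, 925 higher and 733 lower, with 27 called at 48 h, 1381 vanished, 192 reduced, 14 reversed and 14 persisting. DESeq2 gave 1440 in all, 909 higher, 531 lower, 1287 vanished, 129 reduced, 4 reversed and 2 persisting. Reversed genes were 5 with limma-voom, and persisting genes 1 at a mean of at least 4 CPM. Requiring a difference of at least 1.5-fold left 76, 25 higher and 51 lower. A narrower and a wider bound at 48 h (2-fold) put 265 and 16 genes in the reduced class. Without both 48 h libraries of replicate 2, chosen after seeing the data, the counts were 2453 in all, 1574 higher, 879 lower, 2460 and 3028 higher and lower at 4 h, 2135 vanished, 183 reduced, 81 reversed, 77 persisting and 3012 in the remainder. Without both of replicate 1 they were 2751, 1758, 993, 2407, 2966, 2040, 234, 346, 83 and 2670 in that order, with 8 called at 48 h. The cause was not tested.

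With a replicate block, the difference was called for 1166 genes, 707 higher and 459 lower, with 1055 vanished, 87 reduced, 15 reversed and 10 persisting. With a replicate block within each time it was called for 4313, 2531 higher and 1782 lower, with 2698 and 3202 higher and lower at 4 h, 4 at 48 h, 3663 vanished, 278 reduced, 79 reversed and 44 persisting. Deviations of replicate 2 from 1 correlated at 0.82 across 11390 genes between BCI and DMSO at 48 h and at -0.12 to 0.14 in the other pairs of groups, so the numbers were not taken as pairs over all groups, though the 48 h replicates deviated together. With a replicate block within each time, called differences were 37 of 39 in DNA replication, 33 of 35 in ribosome biogenesis, 26 of 26 in heat shock chaperones, 21 of 28 in NRF2 targets, 21 of 29 in the ERK list, 12 of 16 in STAT5 targets, 15 of 22 in sterol synthesis, 11 of 17 in stem regulators, 13 of 23 in erythroid genes, 9 of 31 in proteasome subunits, 8 of 13 in autophagy, 8 of 19 in megakaryocyte genes, 8 of 23 in ATF4, 9 of 25 in mitosis, 9 of 22 in interferon-stimulated and 4 of 12 in histone genes. Of 67 named genes with a called difference, 22 were called in all 18 alternatives and 0 changed sign. Of the 41 named genes without one, 20 were called in at least 1 alternative. Of 23 list medians, 8 moved by more than the median standard error of their genes in at least 1 alternative and 7 changed sign, those of the mitochondrially encoded, erythroid, HEL lineage, megakaryocyte, histone, mitosis and endoplasmic reticulum lists. Genes with a called difference but no call at 4 h were 71 without a low-count filter, 20 with DESeq2, 9 and 293 with a replicate block and one within each time, and 54 and 131 without both 48 h libraries of replicate 2 and of replicate 1. Depth limits the 48 h values of genes of 1 CPM or less.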

Other observations

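Some lists leaned one way at 48 h with no gene called. All 39 DNA replication genes, 25 of 25 mitosis genes and 23 of 23 ATF4 response genes lay above DMSO, as did 52.6% of all genes tested, while 0 of 13 mitochondrially encoded and 1 of 12 histone genes did. Summed over the 39 DNA replication genes, BCI libraries had 5983 and 4581 CPM and DMSO libraries 5737 and 3858 CPM at 48 h, so the replicates lay further apart than the treatments. Without DMSO 48 h replicate 2, 7 DNA replication and 10 mitosis genes lay above DMSO, and without BCI 48 h replicate 1, 19 and 13 did. The lean of the mitochondrially encoded and histone genes also turned on these libraries. Without DMSO 48 h replicate 2, 13 of 13 mitochondrially encoded and 12 of 12 histone genes lay above DMSO, and without BCI 48 h replicate 1, 13 and 5 did. For the ATF4 response it was 18 and 21 of 24, so most of its genes still lay above DMSO. Genes within a list are not independent, and no test was made.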
